A study of Mus musculus with 6 samples.

Results

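Activity-induced immediate-early genes were followed in the ventral dentate gyrus as 39 genes out of the 24062 gene symbols counted. The members were picked by symbol from a fixed list of immediate-early and activity-induced genes, and all 39 were found in the count tables. 38 of them passed the filter on low counts that left 14058 genes for testing. Atf3, an AP-1 partner induced by cell stress, held 2 to 12 counts per library and was left untested. The tissue came from male mice of the C57black 6 strain, with 3 libraries from unstressed controls and 3 from mice given chronic restraint, a repeated confinement used as a psychological stressor. The labels call the replicates biological and name no genetic change in either group. Age, the length of the restraint, the time from the last session to dissection and the number of animals per library are unstated in the labels. P-values therefore measure the spread between these libraries.

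Immediate-early genes are transcribed within minutes of synaptic activity and need no new protein to start. Calcium entering an active neuron signals through kinases to factors already bound at these promoters, mainly CREB at the cAMP response element (CRE) and serum response factor at the CArG box. Many of the products are transcription factors (the Fos, Jun, Egr and Nr4a families and Npas4), while others act at the synapse (Arc, Homer1, Nptx2) or switch the inducing signal off again (the Dusp phosphatases). Their messages are short-lived, and in the dentate gyrus, where few granule cells fire at a time, they are a usual marker of recently active cells.

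Elements of the kind described above were searched for in the members' promoters. Stretches from 10 members are shown so that the letters can be seen beside the values that follow. Sequences are from RefSeq (GRCm38.p6), whose table of promoter windows matched 29 of the 39 members, and only the 250 bases before each start were searched, on both strands. Arc, Crem, Dusp4, Egr1, Egr3, Ier2, Klf10, Nptx2, Sik1 and Trib1 had no window there and were not searched. The whole CRE, TGACGTCA, was found in 4 of the 29 (13.8%) and in 1.77% of the 27025 genes in the table. Its core TGACG, which the whole element contains, was found in 20 of the 29 (69.0%) against 19.8%. The CArG box was found in 2 of the 29 (6.90%) against 1.62%, and the Egr site GCGTGGGCG in none against 0.622%. A gene with several windows was counted once if any window matched. The start is that of the RefSeq window. The stretches shown for Errfi1, Dusp1, Egr2, Nr4a1 and Homer1 lie inside the gene's span in GENCODE M21. A match is a description of the letters and was not tested as a binding site. The stretches run 5′ to 3′ on the gene's strand and capitals mark the match: the whole CRE in Plk2, Errfi1, Dusp1 and Btg2, the CArG box in Egr2, and the core on either strand (TGACG or CGTCA) in the last 5.
Plk2, chr13:110394946-110395025, + strand: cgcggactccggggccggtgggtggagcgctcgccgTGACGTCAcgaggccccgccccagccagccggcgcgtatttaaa
Errfi1, chr4:150854983-150855062, + strand: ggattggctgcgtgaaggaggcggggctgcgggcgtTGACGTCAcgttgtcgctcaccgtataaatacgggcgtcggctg
Dusp1, chr17:26508572-26508651, - strand: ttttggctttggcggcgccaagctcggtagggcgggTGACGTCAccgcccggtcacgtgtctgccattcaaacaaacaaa
Btg2, chr1:134079278-134079357, - strand: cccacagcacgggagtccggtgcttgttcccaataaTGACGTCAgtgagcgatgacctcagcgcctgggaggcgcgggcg
Egr2, chr10:67537459-67537538, + strand: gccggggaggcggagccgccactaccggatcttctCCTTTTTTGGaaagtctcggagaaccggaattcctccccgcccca
Fos, chr12:85473787-85473866, + strand: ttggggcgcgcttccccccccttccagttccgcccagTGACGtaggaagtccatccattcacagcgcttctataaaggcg
Junb, chr8:84978812-84978891, - strand: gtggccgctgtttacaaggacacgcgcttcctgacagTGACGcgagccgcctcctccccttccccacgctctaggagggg
Nr4a1, chr15:101266766-101266845, + strand: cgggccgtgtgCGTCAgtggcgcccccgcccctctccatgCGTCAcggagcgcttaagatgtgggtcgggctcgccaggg
Nr4a2, chr2:57124072-57124151, - strand: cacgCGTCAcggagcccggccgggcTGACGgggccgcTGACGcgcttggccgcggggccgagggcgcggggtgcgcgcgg
Homer1, chr13:93303677-93303756, + strand: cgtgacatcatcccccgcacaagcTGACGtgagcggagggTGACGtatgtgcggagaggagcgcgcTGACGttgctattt

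Libraries held 8305753 to 10107953 gene counts, and 3 counts, the most that a count of 0 allows, corresponded to 0.297 to 0.361 counts per 1000000 (CPM), counting error only. All 10 granule neuron markers, Prox1 and C1ql2 among them, were present in every library. The CA1, CA3, and neocortical and entorhinal markers were present too, at sums of 415 to 719, 631 to 1265 and 475 to 544 CPM. Presence alone thus does not set the dentate gyrus apart from nearby regions. Stress replicate 1 stood apart. Its 10 granule neuron markers summed to 688 CPM against 947 to 1265 CPM in the controls and 1161 and 1269.95 CPM in the other stress libraries, and 9 of the 10 were lowest there. All 10 choroid plexus markers and all 10 striatal neuron markers were highest in it, with sums of 4818 CPM against 25.5 to 33.6 CPM and 989 CPM against 201 to 222 CPM. Oligodendrocyte markers summed to 4701 CPM there against 2003 to 3122 CPM elsewhere, CA3 markers to 1265 against 631 to 810, and ependymal markers to 87.9 against 6.96 to 10.7. Astrocyte, neocortical and entorhinal, and fibroblast markers had their lowest sums there, at 6224, 475 and 50.8 CPM. Control replicate 1 had the lowest level of all 6 libraries in 5 of the 8 CA1 pyramidal markers.

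In the comparison of stress with control, no member passed the adjusted threshold of 0.05, and 6 members were higher in all 3 stress libraries than in any control. Those 6 were Nptx2, Dusp6, Plk2, Errfi1, Nr4a3 and Egr4, and they make up 15.8% of the 38 tested members, where 6.76% of all tested genes lay on that side. None was lower in every stress library, against 7.84% of all tested genes. By edgeR's quasi-likelihood test 0 members rose and 0 fell, where 0.0285% of all tested genes passed, all of them lower. Before adjustment, 7 members had p under 0.05 and were higher, against 3.86% of all tested genes, and 1 was lower, against 4.85%. DESeq2 and limma-voom also called 0 members at the adjusted threshold. Before adjustment DESeq2 gave 8 members higher, against 2.85% of all tested genes, and 1 lower, against 3.29%, and limma-voom gave 7 higher, against 3.55%, and 1 lower, against 4.93%. The median log2 fold change was 0.13 over the tested members and 0.0038 over all tested genes, with 24 of the 38 members (63.2%) above 0 against 51% of all tested genes. Fold changes in the text are those of edgeR, and the SE beside each is that of limma-voom, whose own estimates are plotted with their intervals. In tissue RNA, fewer cells of a type and less RNA per cell cannot be told apart.

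**Figure D1:**
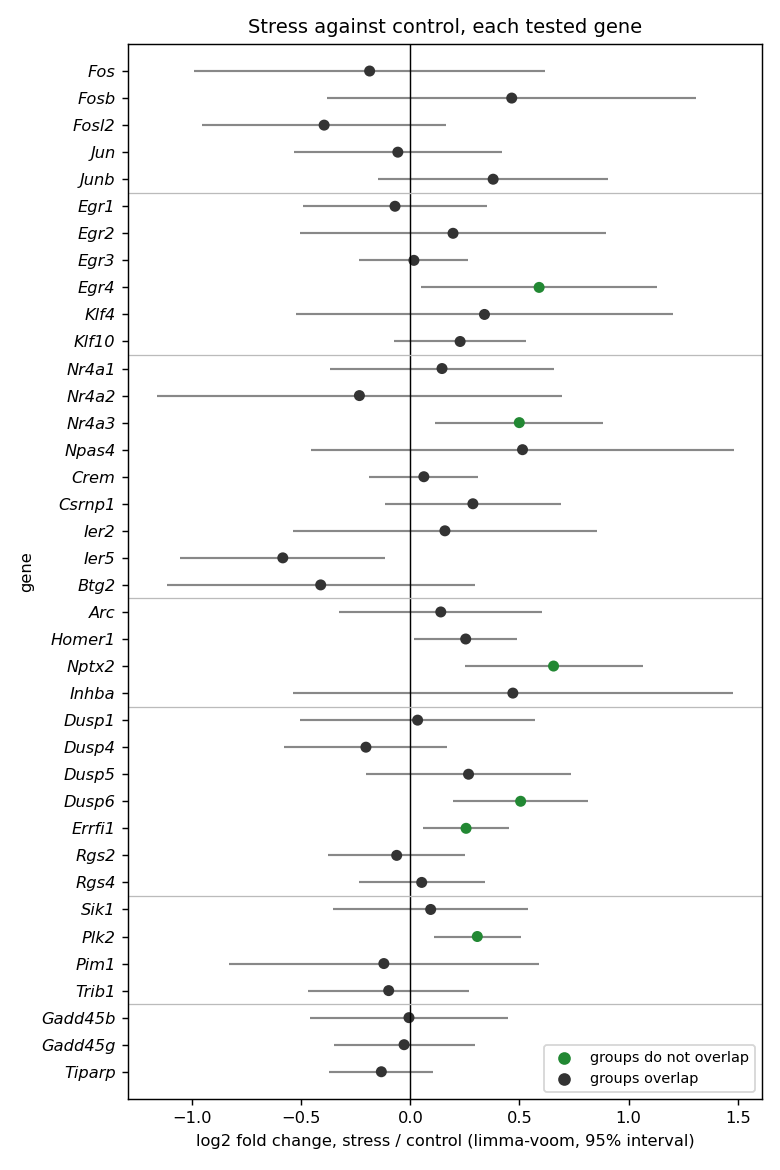
Log2 fold change of each of the 38 tested members, stress over control, from limma-voom with its 95% interval (horizontal bars), ordered by role, with green points for the 6 members whose groups do not overlap. The green points are Egr4, Nr4a3, Nptx2, Dusp6, Errfi1 and Plk2, and of the other intervals those of Ier5 and Homer1 alone do not cross 0.

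The stress libraries differed from one another. Stress replicate 2 held the highest level of 18 tested members (47.4%), where it was highest for 11.8% of all tested genes, and it held the lowest level of none, against 13% of all tested genes. It lay above all 3 controls for 25 of the 38 members, against 24.6% of all tested genes, and below all 3 for none, against 26%. Stress replicate 1 was lowest for 13 members (34.2%), against 25.2% of all tested genes, and control replicate 1 for 12 (31.6%), against 17.5%. As the median of log2 CPM relative to the control mean, the members' level was -0.09, 0.0057 and 0.10 in control replicates 1, 2 and 3, and -0.04, 0.42 and 0.04 in stress replicates 1, 2 and 3. Stress replicate 2 was thus the one library whose level lay outside the range of the controls. In that library the granule neuron markers had a median of 0.06 on the same scale, within the controls' range of -0.27 to 0.24. Its striatal markers summed to 200.8 CPM, against 202.5 to 222 CPM in controls, and its choroid plexus markers to 33.6 CPM, against 25.5 to 27.7 CPM. The CA1 pyramidal and ependymal markers both had a median of 0.43 there, above their highest control medians of 0.38 and 0.34. By sum, the CA1 markers were at 606 CPM there, within the controls' 415 to 641 CPM. The CA1 marker Wfs1 differed from that median, at 60.4 CPM there against 60.3 to 172 CPM in controls. In stress replicate 2 the astrocyte, neocortical and entorhinal, and fibroblast markers had medians of -0.15, -0.20 and -0.35. Their lowest control medians were higher, at -0.12, -0.05 and -0.21. The same lists were below those control medians in stress replicate 1, at -0.21, -0.45 and -0.62, and in stress replicate 3, at -0.18, -0.38 and -0.28. By sum, fibroblast markers were at 83.9 and 111 CPM in stress replicates 2 and 3, against 79.8 to 110 CPM in controls. Astrocyte markers summed to 7099.1 and 7084 CPM there, against 7099.6 to 8069 CPM. The neocortical and entorhinal sums were 516 and 508 CPM, against 533 to 544 CPM. Of those 8 markers, 4 were lower in every stress library than in any control and Crym alone was higher. Those shares were 7.84% and 6.76% among all tested genes. In stress replicates 1 and 3 the CA1 medians were -0.09 and 0.76 and the ependymal medians 2.85 and 0.14. The part of cell makeup in the high level of stress replicate 2 was not tested.

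**Figure D2:**
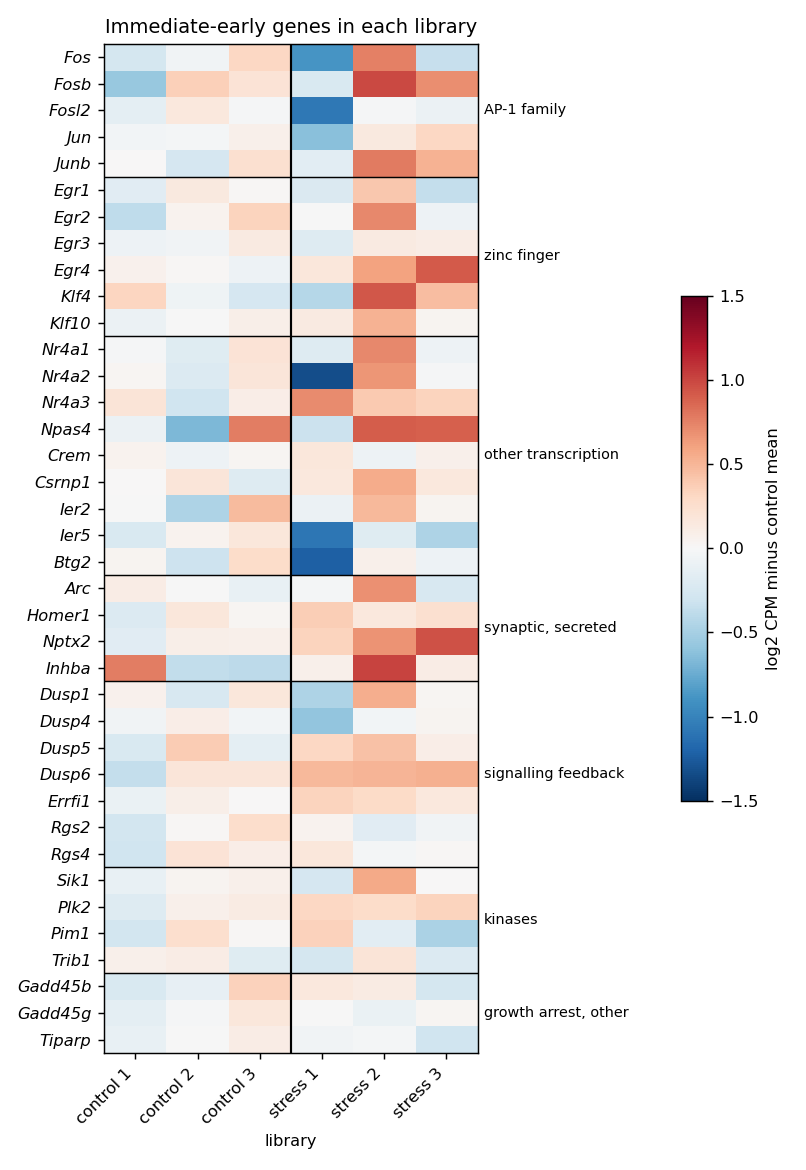
Log2 CPM minus the control mean (colour) for the 38 tested members (rows, ordered by role) in the 6 libraries (columns). The column of stress replicate 2 is red in most rows, while stress replicate 1 is blue for Fos, Fosl2, Nr4a2, Ier5 and Btg2.

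**Figure D3:**
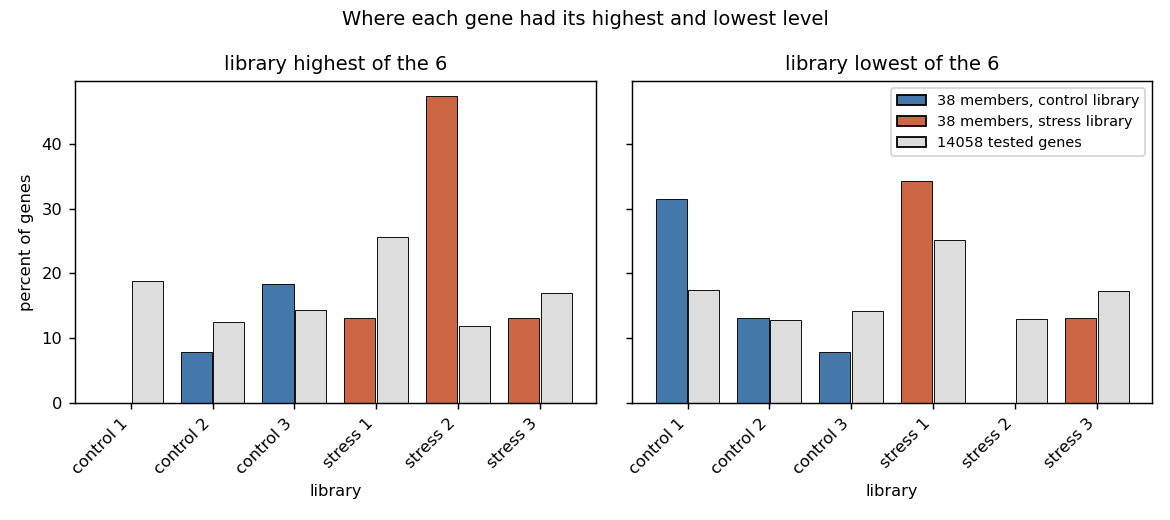
Percent of the 38 tested members (coloured bars) and of all 14058 tested genes (grey bars) that had their highest level (left) or lowest level (right) in each library. Stress replicate 2 was highest for 47.4% of the members and 11.8% of all tested genes.

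AP-1 is a dimer of Fos and Jun proteins, and its 5 tested members had a median SD of log2 CPM of 0.59 within stress, against 0.36 over all tested members. Fos, the usual histological marker of active neurons, was at 16.0, 18.4 and 23.8 CPM in control replicates 1, 2 and 3 and at 10.3, 32.4 and 15.1 CPM in stress replicates 1, 2 and 3. The stress libraries thus held both the highest and the lowest value, and the log2 fold change was -0.02 (SE 0.35). Left out in turn, stress replicate 1 gave 0.27 and stress replicate 2 gave -0.62. Fosb, whose truncated splice form builds up with repeated activity and cannot be separated from the full form in gene counts, was at 2.91, 5.69 and 5.11 CPM in controls and 3.71, 8.96 and 7.27 CPM in stress. The last 2 stress libraries lay above all controls and the first did not, and the log2 fold change of 0.53 (SE 0.37) had an adjusted p of 0.749 and was 0.26 without stress replicate 2. Junb was at 37.3, 31.2 and 44.1 CPM in controls and 33.2, 63.8 and 53.2 CPM in stress, again with stress replicates 2 and 3 above all controls, and its difference was 0.42 on the log2 scale (SE 0.23, adjusted p 0.666) and 0.21 without stress replicate 2. Junb is overlapped on the opposite strand by Prdx2, Jun by Junos and Dusp1 by Ergic1, Csrnp1 shares its strand and some of its span with Cx3cr1, and whether the counting used strand is unstated in the labels. Jun and Fosl2, the other AP-1 genes, differed by -0.0033 (SE 0.21) and -0.32 (SE 0.24) on the log2 scale. Fosl2 was at 71.3, 88.3 and 78.0 CPM in controls and 37.5, 78.2 and 74.3 CPM in stress, so that 1 library, stress replicate 1, lay far below the rest. The median level of the 5 tested AP-1 members was -0.63 in stress replicate 1, where the granule neuron markers had a median of -0.80, and 0.75 and 0.31 in stress replicates 2 and 3. The part of the lower granule marker level in this was not tested.

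The Egr genes encode zinc-finger factors that bind a GC-rich site and are driven through the CArG box. The promoters of Egr1 and Egr3 were not searched here, and of Egr2 and Egr4 only Egr2 had a CArG match. Egr1 was at 48.7, 60.6 and 55.4 CPM in controls and 46.9, 72.4 and 42.5 CPM in stress, with a log2 fold change of -0.03 (SE 0.18). Its stress values straddled the control range, as those of Fos did. Egr4 was at 4.24, 4.12 and 3.83 CPM in controls and 4.58, 6.29 and 7.90 CPM in stress, a log2 fold change of 0.62 (SE 0.24) with an adjusted p of 0.522. All 3 stress libraries were above the controls, the first of them close to control replicate 1. Egr2 and Egr3 differed on the log2 scale by 0.23 (SE 0.31) and 0.02 (SE 0.11). The Krüppel-like factor gene Klf10 was at 28.8, 30.6 and 32.7 CPM in controls and 33.7, 44.2 and 31.5 CPM in stress, a log2 fold change of 0.25 (SE 0.13), and Klf4 had 0.44 (SE 0.38). Without stress replicate 2, the highest library for both, these were 0.086 and 0.084. The groups overlapped for Klf10, where stress replicate 3 lay below control replicate 3.

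Of the Nr4a genes, which encode orphan nuclear receptors, Nr4a3 had a pattern of its own among the libraries. Nr4a3 was at 12.5, 8.82 and 11.7 CPM in controls and 17.9, 14.3 and 13.8 CPM in stress, a log2 fold change of 0.49 (SE 0.17) with an adjusted p of 0.495. Its highest level was in stress replicate 1, the library in which Nr4a1 and Nr4a2 were lowest. Nr4a1 was at 35.6, 31.8 and 41.6 CPM in controls and 31.4, 59.7 and 34.3 CPM in stress, a log2 fold change of 0.20 (SE 0.23). Nr4a2 was at 65.7, 55.7 and 73.2 CPM in controls and 25.5, 102 and 63.7 CPM in stress. The stress values of Nr4a2 ran from 39.4% to 157% of the control mean, and its log2 fold change was -0.03 (SE 0.41).

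Npas4, a neuron-restricted factor that responds to calcium entry, varied in both groups. It was at 11.3, 7.45 and 20.6 CPM in controls and 9.61, 22.8 and 22.5 CPM in stress, a log2 fold change of 0.48 (SE 0.42) with an adjusted p of 0.810. With a library left out this ran from 0.20 without control replicate 2 to 0.99 without control replicate 3. Control replicate 3 lay close to the upper stress libraries and stress replicate 1 within the controls. Ier5, a regulator of heat shock and stress signalling, was the one member with an unadjusted p under 0.05 on the lower side. It was at 54.4, 66.1 and 71.2 CPM in controls and 29.8, 56.0 and 46.1 CPM in stress, a log2 fold change of -0.54 (SE 0.21) with an adjusted p of 0.532. The groups overlapped, because stress replicate 2 lay above control replicate 1. Btg2, an antiproliferative coregulator, was at 31.2, 24.5 and 36.9 CPM in controls and 12.9, 32.0 and 29.0 CPM in stress, with a log2 fold change of -0.33 (SE 0.31). As for Fosl2, the difference came with 1 library, and leaving out stress replicate 1 gave -0.02. Crem, Csrnp1 and Ier2 differed on the log2 scale by 0.06 (SE 0.11), 0.30 (SE 0.18) and 0.12 (SE 0.31). The inducible repressor form of Crem is not separated from its other forms in these counts.

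The 4 synaptic and secreted members all had positive log2 fold changes, as did 51% of all tested genes. Nptx2, a secreted pentraxin that gathers AMPA receptors at excitatory synapses, was at 9.81, 11.8 and 11.6 CPM in controls and 14.0, 17.7 and 21.5 CPM in stress. The difference, 0.68 on the log2 scale (SE 0.18), was the largest among the tested members, with an adjusted p of 0.304 that ranged from 0.0421 to 0.770 over the alternatives. Nptx2 lies on chromosome 5 from 144545902 to 144557478 on GRCm38. Every stress library lay above every control, stress replicate 3 at 195% of the control mean. Arc, which takes AMPA receptors off the synapse, was at 155, 143 and 133 CPM in controls and 141, 230.1 and 121 CPM in stress. 1 stress library was far above the rest and another was the lowest of all. The log2 fold change was 0.19 (SE 0.20), and -0.13 without stress replicate 2. Homer1, a postsynaptic scaffold whose short activity-induced form cannot be told from the long forms in gene counts, was at 157, 204 and 185 CPM in controls and 233, 201 and 214 CPM in stress. The groups overlapped by the values of control replicate 2 and stress replicate 2, and the log2 fold change of 0.25 (SE 0.10) had an adjusted p of 0.550. Inhba, for the activin subunit, was at 0.958 to 2.42 CPM in controls and 1.42 to 2.91 CPM in stress, a log2 fold change of 0.43 (SE 0.44).

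**Figure D4:**
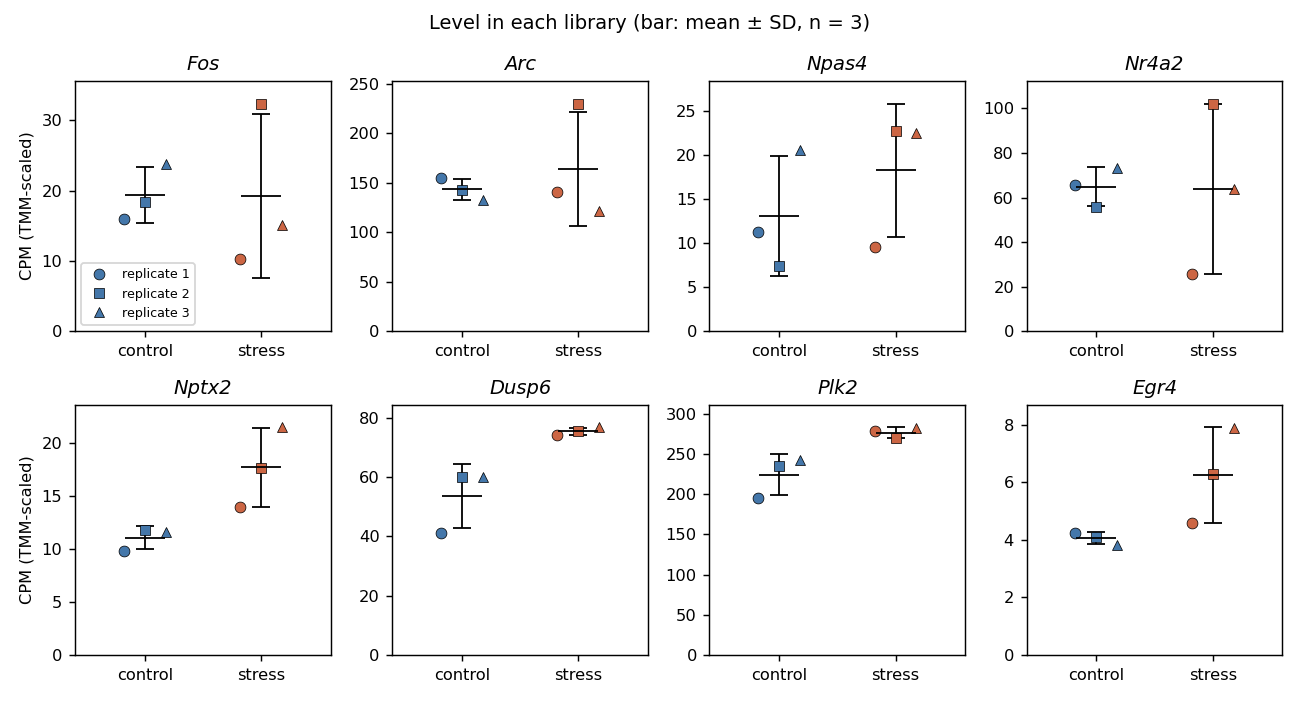
CPM of 8 members in each library (points; shape gives the replicate number), with the mean and SD of 3 libraries as bars, each axis starting at 0. In the upper row stress replicate 2 is highest and stress replicate 1 is below the control mean, and in the lower row all 3 stress libraries lie above the controls.

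Genes that damp the inducing signal also differed from one to the next. Dusp6, a phosphatase that inactivates ERK in the cytoplasm and is itself induced by ERK, was at 41.2, 59.9 and 59.9 CPM in controls and 74.2, 75.4 and 76.8 CPM in stress. The means were 53.7 ± 10.8 and 75.5 ± 1.28 CPM (SD, n = 3), so the stress libraries lay closer together than the controls, and the log2 fold change of 0.49 (SE 0.14) had an adjusted p of 0.357. It was 0.33 without control replicate 1, the lowest library. Dusp6 lies on chromosome 10 from 99263231 to 99267489. Errfi1, an inhibitor of the EGF receptor, was at 40.1, 45.5 and 43.0 CPM in controls and 53.9, 52.2 and 47.8 CPM in stress, a log2 fold change of 0.26 (SE 0.09) with an adjusted p of 0.488. It is overlapped on the opposite strand by 1700045H11Rik. Dusp1, the nuclear phosphatase of the stress kinases, followed Fos instead, at 19.4, 15.6 and 20.9 CPM in controls and 13.3, 27.0 and 18.8 CPM in stress, with a log2 fold change of 0.08 (SE 0.24). Dusp4 and Dusp5 differed on the log2 scale by -0.18 (SE 0.16) and 0.26 (SE 0.21). The G protein regulators Rgs2 and Rgs4 had -0.07 (SE 0.14) and 0.04 (SE 0.13), and both were lowest in control replicate 1.

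Among the kinases, Plk2, which scales synapses down after prolonged activity, was at 196, 235 and 243 CPM in controls and 278, 269.6 and 282 CPM in stress. The groups did not overlap, and its log2 fold change of 0.30 (SE 0.09) had an adjusted p of 0.387. It was 0.21 without control replicate 1. Plk2 lies on chromosome 13 from 110395046 to 110400844, and the whole CRE shown above lies just before its start. The CREB-pathway kinase Sik1 was highest in stress replicate 2, at 22.7 CPM against 14.2 to 16.1 CPM in controls, and had a log2 fold change of 0.14 (SE 0.20). Pim1 and the pseudokinase gene Trib1 had -0.09 (SE 0.31) and -0.09 (SE 0.16). The growth arrest genes Gadd45b, at 7.38, 7.94 and 11.1 CPM in controls and 9.71, 9.43 and 7.17 CPM in stress, and Gadd45g differed on the log2 scale by -0.0083 (SE 0.20) and -0.03 (SE 0.14). Tiparp, a poly(ADP-ribose) polymerase gene, had -0.13 (SE 0.10), and all 3 genes had their highest level in control replicate 3.

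Dusp6, Plk2, Errfi1 and Homer1 were lowest in control replicate 1, as were Nptx2, Rgs4 and 6 other members. In the same library the CA1 pyramidal markers were low, with a median of -0.52 relative to the control mean against 0.38 and 0.19 in the other controls and -0.09, 0.43 and 0.76 in stress replicates 1, 2 and 3. They summed to 415 CPM there, against 527.5 and 641 CPM in the other controls and 429 to 719 CPM in stress, and no CA1 marker was at 0 in all libraries. The CA1 marker Wfs1 was not low in control replicate 1, at 116 CPM. It was at 60.3 and 172 CPM in the other controls and 57.5 to 98.6 CPM in stress. Without control replicate 1, 5 members were higher and 1 lower at an unadjusted p under 0.05, among 3.04% and 3.5% of all tested genes. Errfi1 and Homer1 were no longer among them, at log2 fold changes of 0.21 in place of 0.26 and 0.15 in place of 0.25. The part of CA1 tissue in these members was not tested.

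With stress replicate 1 left out, Nptx2 passed as higher, at 0.82 on the log2 scale with an adjusted p of 0.0421 by edgeR's quasi-likelihood test, among 0.0775% of all tested genes called higher in that fit. At an unadjusted p under 0.05, 12 members were then higher, against 5.4% of all tested genes, and 1 was lower, against 6.13%. With stress replicate 2 left out, the median log2 fold change of the members was -0.03 in place of 0.13, and 18 of the 38 were above 0. In that fit 6 members were higher at an unadjusted p under 0.05, against 4.59% of all tested genes, and 3 were lower, Egr1, Fos and Ier5, against 5.09%. Nptx2, Dusp6 and Plk2, the members with the smallest p with all 6 libraries, had an unadjusted p under 0.05 in each of the 13 alternatives. These fits reuse the same libraries and are not independent, and the share of all tested genes that did the same was not counted. Fos, Nr4a2, Nr4a1, Arc and Dusp1 changed sign in at least 1 fit that left out a library.

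**Figure D5:**
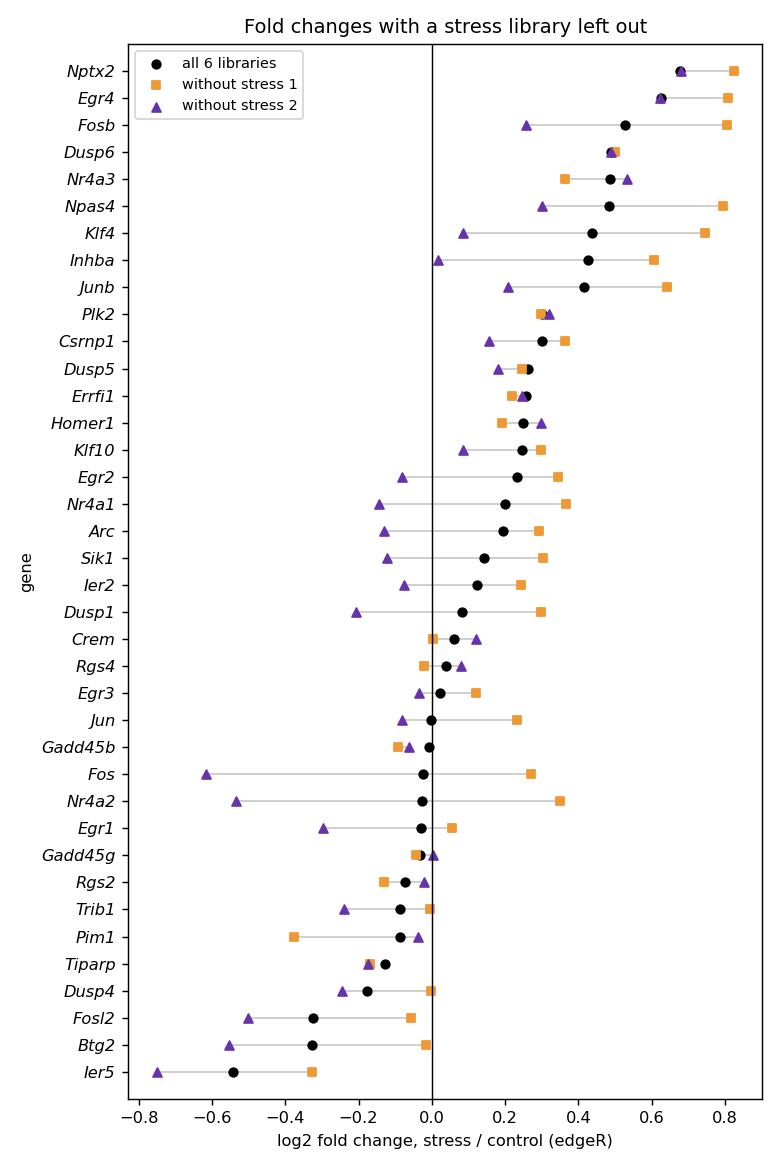
Log2 fold change of each tested member with all 6 libraries (black), without stress replicate 1 (orange) and without stress replicate 2 (purple), from edgeR. The markers of Dusp6, Plk2 and Errfi1 nearly coincide, while those of Fos run from -0.62 to 0.27.

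The members also varied more between libraries of 1 group than most genes did. Within controls the SD of log2 CPM had a median of 0.20 over the 38 members and 0.12 over all tested genes, and within stress 0.36 and 0.15. The members were not alone in this. Granule neuron markers had medians of 0.26 within controls and 0.56 within stress, and CA1 markers 0.52 and 0.45. Mature neuron markers had 0.11 and 0.10, and astrocyte markers 0.10 and 0.07. In controls the members' median level was 21.3 CPM against 27.1 CPM for all tested genes. Within stress the SD was widest for Nr4a2, at 1.01, and Fos, at 0.83, and narrowest for Dusp6, at 0.02, and Plk2, at 0.03. Nr4a2 and Fos had SDs of 0.20 and 0.29 within controls, where Dusp6 and Plk2 had 0.31 and 0.17.

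Per kilobase of annotated exon, the control level was highest for Rgs4, at 65.9 ± 11.6 CPM per kb (SD, n = 3), followed by Plk2 at 49.96 ± 5.62, Arc at 46.9 ± 3.55 and Jun at 31.5 ± 1.39. Plk2 and Arc did not differ beyond their SDs. Fos was at 8.26, Npas4 at 3.17 and Fosb at 0.731 CPM per kb, and Atf3 was the lowest at 0.194. Arc was thus the most abundant of the classical activity markers in unstressed tissue on this scale. Exon lengths are from GENCODE M21 and count every annotated exon, so a gene with many alternative exons, such as Homer1, has a lower value on this scale.

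By edgeR's quasi-likelihood test with all 6 libraries, no call was made among the genes that act on the members or among other genes that activity induces, while DESeq2 called 2 and 1 of them lower. Of 32 upstream kinases, coactivators and factors, all tested, 0 rose and 0 fell. Their log2 fold changes had a median of 0.03 with 20 (62.5%) above 0, against 51% of all tested genes. Before adjustment 1 was higher and 3 lower at p under 0.05, against 3.86% and 4.85% of all tested genes. Mef2c, an activity-regulated factor of neurons, was at 388, 320.01 and 396 CPM in controls and 189.8, 275 and 222 CPM in stress, a log2 fold change of -0.69 (SE 0.14) with an adjusted p of 0.215. Prkacb, a catalytic subunit of protein kinase A, had -0.36 (SE 0.08) with an adjusted p of 0.260, and for both genes all stress libraries were below all controls. Map2k1, the kinase that activates ERK, had 0.19 (SE 0.07) with an adjusted p of 0.541. By DESeq2, Mef2c and Prkacb passed as lower, with adjusted p-values of 0.000537 and 0.0242, where 0.484% of all tested genes passed as lower and 0.277% as higher. Of 40 other activity-induced genes, 38 were tested, 0 rose and 0 fell, the median was 0.07 and 25 (65.8%) were above 0. At an unadjusted p under 0.05 1 was higher and 2 lower, to be read against the same shares of all tested genes. Mapk4, an atypical MAP kinase, had -0.49 (SE 0.09) with an adjusted p of 0.215, which was 0.00877 by DESeq2 and 0.0158 without stress replicate 1, where 0.211% of all tested genes passed as lower. The neuropeptide convertase gene Pcsk1 had -0.37 (SE 0.11) and the cyclooxygenase gene Ptgs2 0.63 (SE 0.28), with adjusted p-values of 0.441 and 0.573. The level of the other activity-induced genes was highest in stress replicate 2, at a median of 0.11 relative to the control mean against -0.05 and 0.04 in stress replicates 1 and 3, the order of the stress libraries among the members. In control replicates 1, 2 and 3 it was -0.05, 0.02 and 0.04. The upstream list had the same order, at -0.05, 0.07 and 0.04 in stress replicates 1, 2 and 3. Its controls ran from -0.04 to 0.06.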

How the data were processed

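RNA was measured in 6 libraries, 3 control and 3 stress, prepared, per the labels, with a strand-preserving kit for total RNA depleted of ribosomal RNA. The authors deposited raw counts per gene symbol, 1 file per library. Tools listed in the submitters' processing notes, which give no role or order, are TopHat2 2.0.9 (a spliced aligner), HTSeq 0.6.1 (a read counter), Trimmomatic 0.33, FastQC 0.11.3 and edgeR 3.12.0, with builds GRCm38 and mm10. Annotation, counting options and use of strand are not given in those notes. Reads assigned to no gene, 59.5% to 63.1% of those listed, and ambiguous reads, 0.211% to 0.253%, entered neither the library sizes nor any test.

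In R 4.3.3, genes were kept by filterByExpr of edgeR 4.0.16, scaled by TMM and compared by its quasi-likelihood F-test in a design holding group alone, two-sided, with Benjamini-Hochberg adjustment over all 14058 tested genes and a threshold of 0.05. SEs and 95% intervals come from limma 3.58.1 (voom). CPM is TMM-scaled, and log2 CPM uses a prior count of 2. Alternatives were RLE and upper-quartile scaling, no filter, a CPM of at least 1 in 3 libraries, DESeq2 1.42.0, limma-voom, the replicate number as a block, and each library left out. The fit was tested on simulated data in which 200 genes per draw, each with a mean count of at least 60, were changed. That simulation does not cover changes in members with lower counts, such as Egr2. Positions and exon lengths are from GENCODE M21 on GRCm38 and promoters from RefSeq on GRCm38.p6.

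The members and lists were chosen with earlier results of these data known. Values in every library are given for the 10 tested members with the smallest p and for Fos, Fosb, Junb, Arc, Egr1, Npas4, Nr4a1, Homer1, Dusp1 and Gadd45b. Fosl2, Nr4a2 and Btg2 were added after their values were seen. From each pathway list the 3 tested genes with the smallest p are named.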

Additional observations from a re-analysis of the deposited data

How the results depend on the processing

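Over the 13 alternatives the count of members past the threshold was 0, except 1 without stress replicate 1, the range with a library left out being 0 to 1. Among all tested genes the count of 4 became 107 by DESeq2, 1 by limma-voom and 0 with the replicate block, and ran from 0 to 41 with a library left out. The members' median log2 fold change of 0.13 ran from -0.028 to 0.26 with a library left out, the lowest without stress replicate 2 and the highest without stress replicate 1, and it was above 0 in every other alternative. The levels of the 6 libraries kept their sign under other scalings and filters. The labels do not say whether the same replicate numbers pair the libraries, and 3 libraries per group cannot decide it. Same-numbered pairs had correlations of deviations from the group means of 0.14, -0.0076 and 0.04. The other pairs ran from -0.15 to 0.12. With the replicate block no member was called, as without it. 22 of the 38 members kept their sign in every alternative that was run. Jun turned to 0.0028 with the filter on CPM. With a library left out, 16 members changed sign, with ranges of -0.62 to 0.27 for Fos, -0.19 to 0.23 for Jun, -0.30 to 0.12 for Egr1, -0.082 to 0.43 for Egr2, -0.035 to 0.12 for Egr3, -0.14 to 0.37 for Nr4a1, -0.54 to 0.35 for Nr4a2, -0.095 to 0.43 for Ier2, -0.13 to 0.38 for Arc, -0.21 to 0.30 for Dusp1, -0.20 to 0.076 for Rgs2, -0.10 to 0.15 for Rgs4, -0.12 to 0.30 for Sik1, -0.38 to 0.11 for Pim1, -0.11 to 0.20 for Gadd45b and -0.10 to 0.064 for Gadd45g. The cause of these changes was not tested, beyond the library left out. Atf3, Inhba, Pim1, Egr2, Ier2 and Klf4 had at most 44 counts per library, so counting error is largest for them. The SE also holds the spread between libraries, and among the tested members it was largest for Inhba (0.44), Npas4 (0.42) and Nr4a2 (0.41).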
